A study of Mus musculus with 10 samples.

Results

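The genes described are 10 mediators of inflammasome signaling, pyroptosis and necroptosis: Zbp1, Nlrp3, Aim2, Casp1, Casp4, Casp8, Gsdmd, Mlkl, Ripk1 and Ripk3. They were picked by symbol, 1 row each, from the 36009 rows of the gene table. All 10 rows were measured above the filter on low values. RNA was sequenced from pieces of subcutaneous WEHI-164 tumors, a mouse fibrosarcoma line, grown in female wild-type BALB/c mice of 8 to 12 weeks. The pieces were removed at surgery and kept in RNAlater before a hydrogel with poly(I:C), a double-stranded RNA mimic, was placed in the wound, so that no tumor had been treated when it was sampled. Mice were then sorted by outcome into responders (RS, complete regression) and non-responders (NR, no delay in growth). The study's methods state that 5 of each were selected. The responders were tumors 5, 9, 10, 11 and 12 and the non-responders tumors 1, 2, 3, 6 and 7, with 1 piece per mouse and 5 per group. The comparison asks whether tumors that later responded differed beforehand. Total estimated counts ran from 16002949 to 31160790 in responders (median 25627675) and from 19863863 to 28276142 in non-responders (median 22757833).

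Inflammasomes are protein platforms in which a sensor such as Nlrp3 or Aim2 activates caspase-1, which matures interleukin-1β and interleukin-18 and cleaves gasdermin D. The cut gasdermin opens pores in the plasma membrane, a death called pyroptosis, and mouse caspase-11, encoded by Casp4, reaches the same end from cytosolic bacterial lipopolysaccharide. Necroptosis runs through the kinases Ripk1 and Ripk3, or Zbp1 and Ripk3, to the membrane-disrupting pseudokinase Mlkl, and caspase-8 restrains it. Transcript levels, which are what was measured, do not show whether any of these proteins was activated. Several of the genes are inducible by interferons.

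No member passed the test between responders and non-responders. The fitted mean was higher in responders for 9 of the 10 genes, against 48.6% of all features tested, and lower for Casp8. In fits without 1 tumor the count of higher genes ran from 8 to 10. Zbp1 had the largest log2 fold change, with 152 ± 25.6 CPM (counts scaled to a common library size with edgeR's TMM factors; SD, n = 5) in responders and 112 ± 26.1 in non-responders, followed on that scale by Casp4 with 42.2 ± 2.77 and 34.9 ± 5.91. By the quasi-likelihood test of edgeR, adjusted after Benjamini and Hochberg, 0 of the 10 had an adjusted p under 0.05, as had 0 of all 15767 features (0%), and the smallest adjusted p of a member was 0.580, also the smallest of the whole table. At an unadjusted p under 0.05, 5 members were higher in responders (Zbp1, Casp4, Mlkl, Gsdmd and Ripk3), against 4.20% of all features, and 0 were lower, against 4.0%. DESeq2 and limma each gave 5 members at that level as well. Over all features limma called 0 at an adjusted p under 0.05 and DESeq2 called 4, none of them a member, for which DESeq2 gave no adjusted p. The median log2 fold change was 0.16 over the 10 members and -0.0036 over all features. These are descriptions of a list picked with earlier results of the same tumors known. Without responder tumor 9 or non-responder tumor 7 the 5 genes became 2 (Casp4 and Zbp1), and without responder tumor 11 or non-responder tumor 2 they became 3. The features at that level over the whole table fell in the same fits, from 1294 to 866 and 932 without responder 9 or non-responder 7, and to 839 and 1144 without responder 11 or non-responder 2. Without responder 5 there were 2139, and 9 features, none of them a member, had an adjusted p under 0.05 by edgeR.

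**Figure D1:**
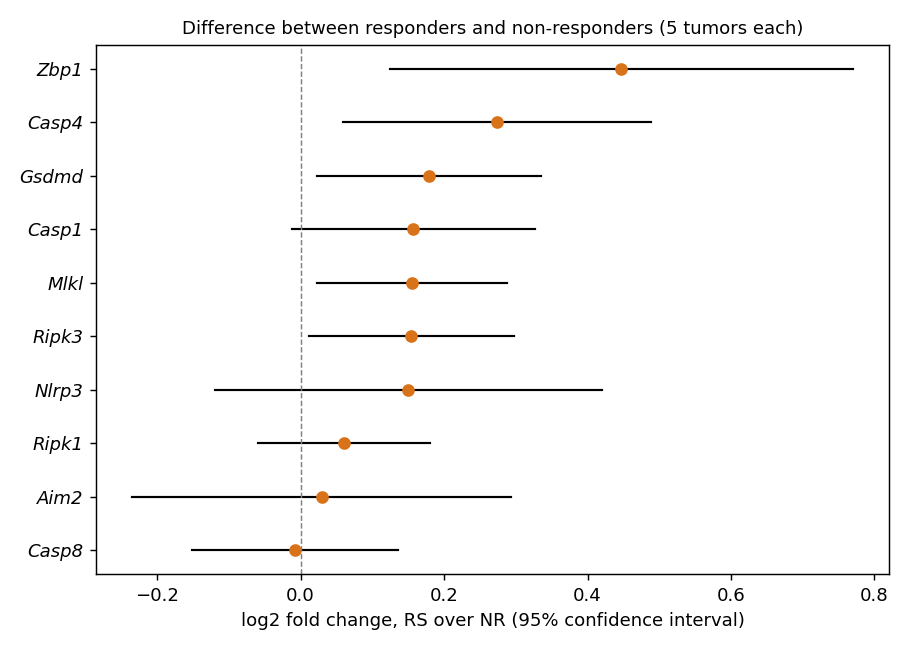
Fitted log2 fold change, responders over non-responders, of each of the 10 genes with its 95% confidence interval from edgeR (5 tumors per group). Zbp1 is highest at 0.45 and Casp8 is the only gene below 0, and the intervals of 5 genes lie above 0 before adjustment.

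Levels between genes were compared per kilobase of merged coding-gene exons, as CPM per kilobase over all 10 tumors. Zbp1 led with a mean of 60.8 (range 37.2 to 90.3), followed by Gsdmd at 51.4 (43.9 to 61.6), Casp1 at 44.1 (36.2 to 48.7) and Mlkl at 36.4 (31.5 to 40.6). Casp4 followed at 26.5 (20 to 30.6), Casp8 at 21.8 (19.4 to 24.9) and Ripk3 at 13.9 (11.8 to 16.3). Ripk1 at 8.99 (7.87 to 9.72), Nlrp3 at 3.61 (3.02 to 4.67) and Aim2 at 2.33 (1.92 to 2.86) were lowest. In this order the ranges of Zbp1 and Gsdmd, of Gsdmd and Casp1, of Casp1 and Mlkl, and of Casp4 and Casp8 overlapped, while those of the other neighbours did not. The inflammasome sensors thus lay lowest and the membrane executioners near the top. The longest coding transcript as length gave the same order.

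**Figure D2:**
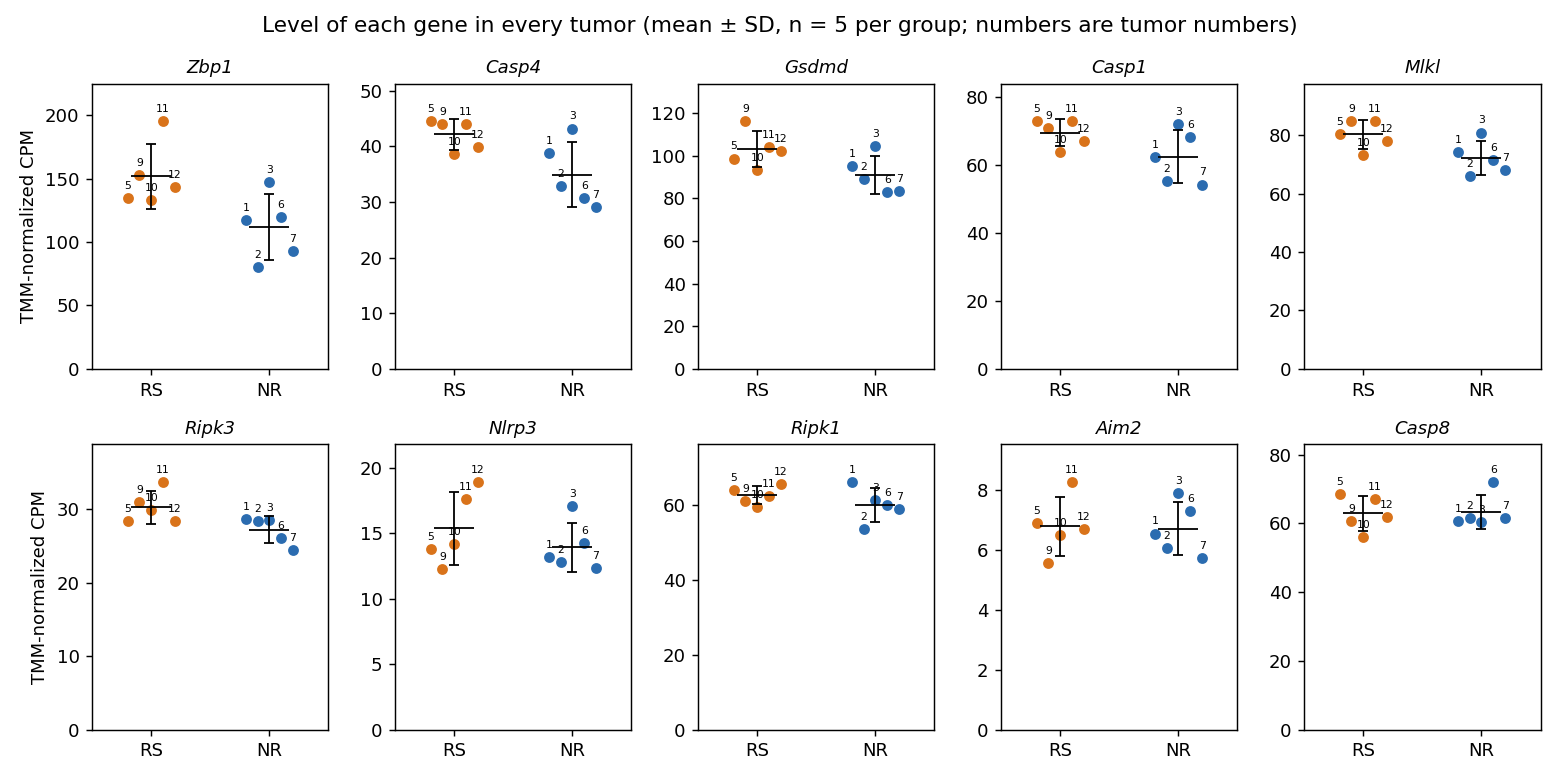
CPM of each gene in each tumor, 1 panel per gene with its own axis, as points for 5 responders and 5 non-responders with the group mean and SD. The groups overlap in every panel, and 3 responders lie above every non-responder for Casp4 and for Ripk3.

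Zbp1 senses left-handed double-stranded nucleic acid and recruits Ripk3. It is annotated at chr2:173206612-173218923 on the minus strand (GRCm38, as are all gene positions given). Its level was 135, 153, 133, 195 and 143 CPM in responder tumors 5, 9, 10, 11 and 12, and 117, 80.4, 148, 120 and 92.6 CPM in non-responder tumors 1, 2, 3, 6 and 7. Responder 11 stood highest, 4 of the 5 non-responders lay below every responder, and the groups overlapped through non-responder 3. The log2 fold change was 0.45 (SE 0.15, 95% interval 0.12 to 0.77), with an unadjusted p of 0.0105 and an adjusted p of 0.580 by edgeR. An exact two-sided permutation test of the 2 groups gave p = 0.0317, where the smallest value possible with 252 assignments is 0.00794. Zbp1 also varied most among the members, with a coefficient of variation of 24.5% over all 10 tumors, and its log2 fold change was 0.34 without responder 11 and 0.57 without non-responder 3.

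Ripk3, the kinase that phosphorylates Mlkl, lies at chr14:55784995-55788865 on the minus strand. It measured 28.4, 30.96, 29.95, 33.8 and 28.3 CPM in responders (tumors 5, 9, 10, 11 and 12) and 28.7, 28.4, 28.5, 26.0 and 24.5 CPM in non-responders (tumors 1, 2, 3, 6 and 7). Responders 9, 10 and 11 were above every non-responder, non-responders 6 and 7 were below every responder, and the other tumors lay close together. The log2 fold change was 0.15 (SE 0.07), with an adjusted p of 0.591 by edgeR and an exact permutation p of 0.0714. Ripk1, the scaffold and kinase downstream of the tumor necrosis factor receptor, lies at chr13:34002363-34037147 on the plus strand and varied least of the members, with a coefficient of variation of 5.98%. Its levels were 64.1, 61.2, 59.5, 62.5 and 65.6 CPM in responders and 66.2, 53.7, 61.3, 59.99 and 58.9 CPM in non-responders, in the same order of tumors. The responders lay within the wider range of the non-responders, of which tumors 2 and 7 were below every responder, with a log2 fold change of 0.06 (95% interval -0.06 to 0.18). Serpinb6a overlaps Ripk1 on the opposite strand, as does a pseudogene, and another pseudogene overlaps it on its own strand. Whether the libraries kept strand is not given in the sources used here, so that reads of such partners may not be separable.

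Mlkl, the executioner of necroptosis, lies at chr8:111311797-111338177 on the minus strand. In responder tumors 5, 9, 10, 11 and 12 it measured 80.4, 84.9, 73.2, 84.8 and 77.8 CPM, and in non-responder tumors 1, 2, 3, 6 and 7 it measured 74.3, 66.0, 80.9, 71.3 and 68.0 CPM. Non-responders 2, 6 and 7 lay below every responder, whereas responder 10 and non-responder 3 crossed into the other group. The means were 80.2 ± 4.94 and 72.1 ± 5.85 CPM (SD, n = 5), a log2 fold change of 0.16 (SE 0.06) with an adjusted p of 0.586 by edgeR and an exact permutation p of 0.0635. Casp8, the protease that starts death-receptor apoptosis and cleaves Ripk1 and Ripk3, lies at chr1:58795374-58847503 on the plus strand. It measured 68.6, 60.7, 56.1, 67.1 and 61.9 CPM in responders and 60.7, 61.5, 60.5, 72.1 and 61.7 CPM in non-responders. Non-responder 6 held the highest value and responder 10 the lowest. Its log2 fold change was -0.01 (95% interval -0.15 to 0.14), and its sign changed with the tumors or covariates used.

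Nlrp3, the sensor of ion flux and membrane damage, lies at chr11:59541568-59566956 on the plus strand. It measured 13.8, 12.3, 14.2, 17.6 and 18.9 CPM in responder tumors 5, 9, 10, 11 and 12 and 13.2, 12.8, 17.1, 14.3 and 12.4 CPM in non-responder tumors 1, 2, 3, 6 and 7. Responders 11 and 12 were above all non-responders and responder 9 was below all of them, which left a log2 fold change of 0.15 with an interval of -0.12 to 0.42. That value was 0.06 without responder 12 and 0.23 without non-responder 3. Aim2, the sensor of cytosolic DNA, lies at chr1:173350879-173466040 on the plus strand, where it overlaps Cadm3 on the opposite strand. It measured 6.92, 5.57, 6.51, 8.29 and 6.71 CPM in responders and 6.56, 6.07, 7.90, 7.31 and 5.75 CPM in non-responders. The responders held both the lowest and the highest value, with all non-responders between them. The log2 fold change was 0.03 (95% interval -0.23 to 0.29), and its sign changed with the tumors or covariates used.

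Casp1 and Casp4 encode the inflammatory caspases and are neighbours on chromosome 9, at chr9:5298517-5307265 and chr9:5308828-5336783, both on the plus strand with 1562 bases between them. Casp4 measured 44.6, 44.0, 38.5, 43.9 and 39.8 CPM in responder tumors 5, 9, 10, 11 and 12 and 38.8, 32.8, 43.2, 30.6 and 29.1 CPM in non-responder tumors 1, 2, 3, 6 and 7. Non-responders 2, 6 and 7 were below every responder and responders 5, 9 and 11 above every non-responder. Non-responder 3 reached the responders' level, and non-responder 1 lay above responder 10. This gave a log2 fold change of 0.27 (SE 0.10, 95% interval 0.06 to 0.49), with an unadjusted p of 0.0162, an adjusted p of 0.580 by edgeR and an exact permutation p of 0.0397. Casp1, which cleaves pro-interleukin-1β and gasdermin D, measured 72.9, 71.0, 63.8, 73.0 and 66.9 CPM in responders and 62.4, 55.2, 72.2, 68.1 and 54.2 CPM in non-responders. Its non-responders were spread more widely than its responders (SD 7.84 against 4.03 CPM). Non-responder 3 was again among the responders, and non-responder 6 lay above responders 10 and 12. This left a log2 fold change of 0.16 (95% interval -0.01 to 0.33), with an adjusted p of 0.621 by edgeR. The estimated counts of Casp1 were whole numbers, within 0.01, in all 10 tumors and those of Casp4 in none. The counts of Ripk1 and Aim2 were likewise whole in no tumor, those of Casp8 in 1 and those of Zbp1 in 7, and those of Gsdmd, Mlkl, Ripk3 and Nlrp3 in all 10.

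Gsdmd, the pore-forming substrate of both caspases, lies at chr15:75862327-75867408 on the plus strand. Responder tumors 5, 9, 10, 11 and 12 had 98.7, 116, 93.4, 104 and 102 CPM, and non-responder tumors 1, 2, 3, 6 and 7 had 95.3, 89.0, 104, 82.9 and 83.4 CPM. Responder 9 was highest, and non-responders 2, 6 and 7 were below every responder. The means of 103 ± 8.53 and 91.0 ± 9.05 CPM (SD, n = 5) gave a log2 fold change of 0.18 (SE 0.07), with an unadjusted p of 0.0274, an adjusted p of 0.591 by edgeR and an exact permutation p of 0.0794. For 0 of the 10 members was every responder above every non-responder, an arrangement that 0.336% of all features showed.

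Some tumors stood high or low across most of the 10 genes. In responder 11 all 10 genes were above their 10-tumor mean, and their median deviation was 0.18 on the log2 scale. Non-responder 3 had 8 of 10 above the mean (median deviation 0.12), as many as responder 5, while responder 10 had 3. Non-responders 2 and 7 had 0 genes above the mean, with median deviations of -0.18 and -0.21. Responder 11 was the highest tumor for 4 members, and non-responders 2 and 7 were each the lowest for 3. By these counts non-responder 3 stood on the responders' side and responder 10 on the non-responders' side.

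**Figure D3:**
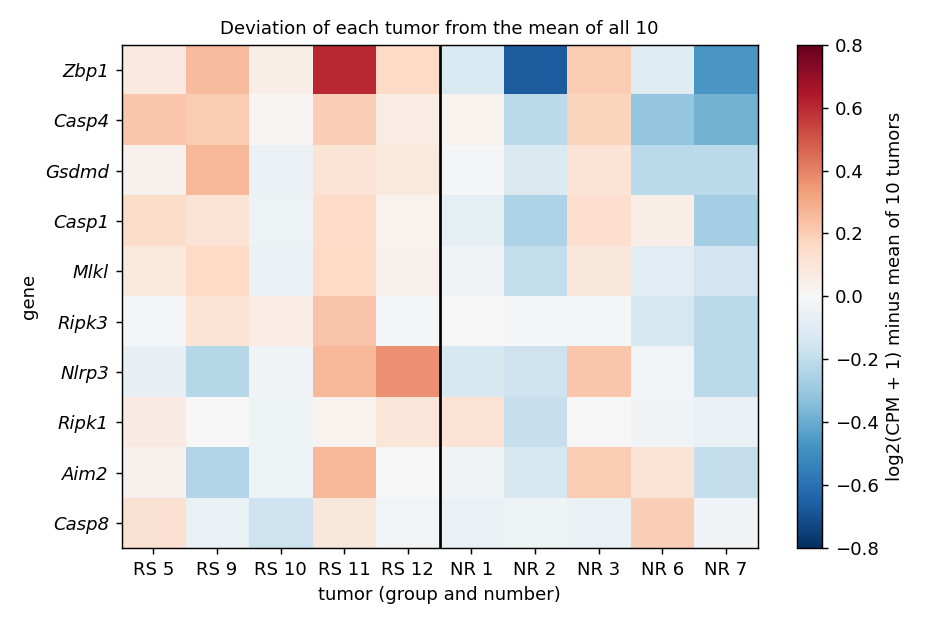
Heat map of the log2 deviation of each gene (rows) from its 10-tumor mean in each tumor (columns, responders then non-responders). Responder 11 is above the mean in all 10 rows and non-responders 2 and 7 in none, and non-responder 3 is above it in 8.

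In most of their pairs Zbp1, Mlkl, Casp1, Casp4 and Gsdmd varied together from tumor to tumor. Casp8, Ripk1, Nlrp3 and Aim2 were in no pair past the test by Pearson's r. Over the 45 pairs of members, Pearson's r of log2(CPM + 1) over 10 tumors was above 0 for 42, with a median of 0.56. Over all pairs of the 15767 features tested, r was above 0 for 49.9%, with a median of 0.00. A two-sided permutation test used 100000 resamples and Benjamini-Hochberg adjustment over the pairs. It gave 9 pairs with an adjusted p under 0.05 by r and 10 by Spearman's rho, of which 8 were shared. Casp4 and Ripk3 passed by r alone (rho = 0.636, adjusted permutation p = 0.155). Nlrp3 and Aim2 passed by rho alone (rho = 0.83, adjusted permutation p = 0.0294, against 0.0557 by r). So did Gsdmd and Zbp1 (rho = 0.855, adjusted permutation p = 0.0226, against 0.0557 by r). Gsdmd and Casp1 passed by neither (adjusted permutation p = 0.0985 by r and 0.155 by rho). The strongest pair was the sensor and the executioner of necroptosis, Mlkl and Zbp1 (r = 0.927, permutation p = 5e-05, adjusted 0.00225; rho = 0.939, p = 0.00012, adjusted 0.0054), and r was 0.828 without non-responders 2 and 7. Next came the pyroptotic caspase and its substrate, Gsdmd and Casp4 (r = 0.902, permutation p = 0.00021, adjusted 0.00472; rho = 0.855, p = 0.00293, adjusted 0.0226), with r = 0.929 without non-responder 6 and responder 9. The other 7 pairs past the test by r went both ways without the 2 farthest tumors. The value of r was higher for Casp4 and Mlkl (0.900 to 0.963), Gsdmd and Mlkl (0.888 to 0.916) and Casp4 and Zbp1 (0.792 to 0.869). It was lower for Casp4 and Ripk3 (0.776 to 0.404), Casp1 and Casp4 (0.787 to 0.508), Casp1 and Zbp1 (0.887 to 0.654) and Casp1 and Mlkl (0.894 to 0.763). Casp4 had the highest median r with the other 9 genes (0.776, 5 pairs past the test), followed by Zbp1 (0.72), Mlkl (0.699) and Gsdmd (0.676). Casp8 had the lowest (0.127). Taken as deviations from the group means, 6 pairs passed and the median r was 0.472, so the covariation was present within the groups too. The 10 tumors share depth and cell composition as sources of such covariation, and their part in it was not tested.

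**Figure D4:**
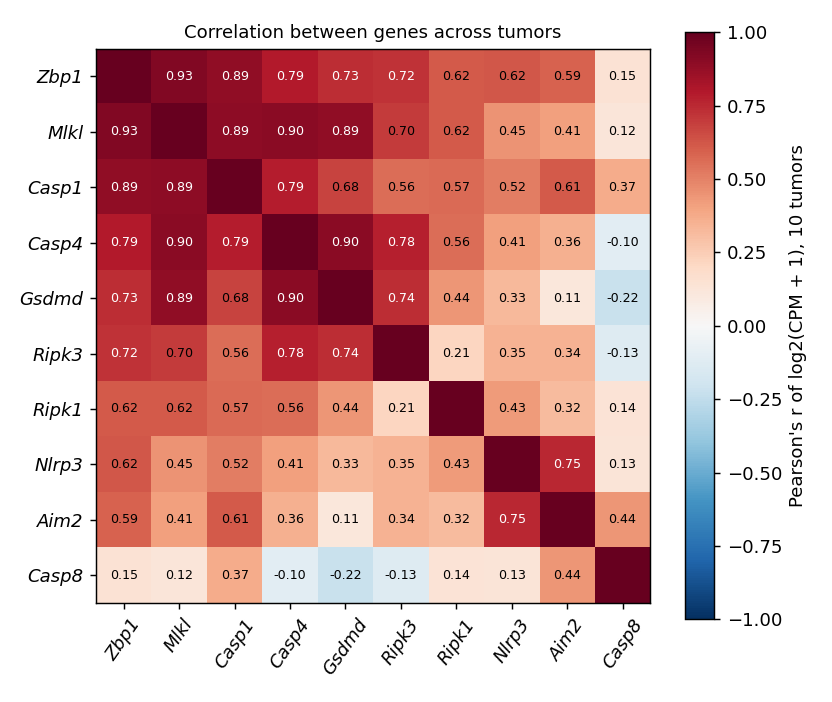
Pearson's r of log2(CPM + 1) between each pair of the 10 genes over 10 tumors, as a colored matrix. Zbp1, Casp4, Gsdmd, Casp1 and Mlkl form a block of high values up to 0.927, and the Casp8 row runs from -0.221 to 0.444.

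The features most like each member over the 10 tumors, among 10974 with a mean of at least 5 CPM, were found by the same r as a description. For Zbp1 these were the features Gm4841 (0.988), Trafd1 (0.979) and Ly6a (0.978). For Mlkl they were Apol6 (0.97), Gbp5 (0.967) and Gbp2 (0.966), the last 2 being interferon-inducible guanylate-binding proteins. Casp1 was nearest to Irgm1 and Rmdn3 (both 0.983) and Tgtp1 (0.964), of which Irgm1 and Tgtp1 are interferon-inducible GTPases. Casp4 was nearest to Plekhf1 (0.963), Nlrc5 (0.957), a transactivator of MHC class I genes, and Gm42517 (0.95). Gsdmd was nearest to Insr (0.956), Slc25a37 (0.951) and Gm8995 (0.946), and Ripk3 to Cdkn1a (0.96), Acox3 (0.955) and Rhoq (0.952). Ripk1 was nearest to Tbk1 (0.922), a kinase of innate signaling, then Coro7 (0.905) and Havcr2 (0.883). Aim2 was nearest to Irf5 (0.902), Dbnl (0.897) and Hcls1 (0.89), and Nlrp3 to Snrnp35 (0.879), Atg4d (0.857) and Mdp1 (0.839). Casp8 was nearest to genes of the mitochondrion, Mrpl27 (0.903), Tomm20 and Mrps2 (both 0.881). The highest r among so many features over 10 tumors can be large by chance, which was not tested.

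Of 30 further genes of inflammasomes and pyroptosis, 22 passed the filter, 16 with a higher and 6 with a lower fitted mean in responders, and 0 had an adjusted p under 0.05 by edgeR. The list's median log2 fold change was 0.15 (0.07 with the leukocyte and 0.08 with the macrophage markers as a covariate), and 5 genes were higher at an unadjusted p under 0.05 against 0 lower. Ninj1, which drives the final rupture of the membrane, was at 79.7 ± 14.6 CPM in responders and 64.2 ± 7.85 in non-responders (SD, n = 5; log2 fold change 0.31, edgeR adjusted p = 0.586). Il18bp, the soluble inhibitor of interleukin-18, was at 23.0 ± 5.64 and 16.8 ± 4.55 CPM (0.46, edgeR adjusted p = 0.591). Txnip, a thioredoxin inhibitor that binds Nlrp3, was at 98.0 ± 4.53 and 86.7 ± 11.1 CPM (0.18, edgeR adjusted p = 0.591). The groups overlapped for each, with 3 responders above every non-responder for Ninj1 and Il18bp and 1 for Txnip. The following genes were chosen for their role after their values were seen. Il1b, the main substrate of caspase-1, had the largest fold change of the list, with 47.7 ± 23.0 and 28.1 ± 11.01 CPM, but a wide spread and an edgeR adjusted p of 0.619. Pycard, the adaptor ASC, was at 8.25 ± 1.33 and 7.11 ± 1.29 CPM, and Il18 at 2.47 ± 0.421 and 2.11 ± 0.336 CPM. Gsdme, a gasdermin cut by caspase-3, was level at 21.4 ± 2.32 and 21.5 ± 1.66 CPM. The gasdermins Gsdma, Gsdma3, Gsdmc, Gsdmc2, Gsdmc3 and Gsdmc4 did not pass the filter, and Gsdma3, Gsdmc2 and Gsdmc3 had 0 counts in all tumors.

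Among 32 other genes of necroptosis and Ripk1 signaling, all passed the filter, 21 with a higher and 11 with a lower mean in responders. None had an adjusted p under 0.05 by edgeR, 6 were higher at an unadjusted p under 0.05 and 0 lower, and the median log2 fold change was 0.08. That median was 0.03 with the leukocyte and 0.04 with the macrophage markers as a covariate, and 0.04 without non-responder 7. Ikbkb, the catalytic subunit of the IκB kinase complex, had 72.1, 74.7, 72.1, 75.0 and 72.5 CPM in responders and 68.6, 64.9, 69.7, 68.7 and 65.5 CPM in non-responders. All 5 responders were above every non-responder, with a log2 fold change of 0.12 (SE 0.04, edgeR adjusted p = 0.580). Birc3, a ubiquitin ligase that keeps Ripk1 in its survival complex, was at 40.5 ± 4.25 and 33.7 ± 3.03 CPM (0.26, edgeR adjusted p = 0.580). Ikbkg, the regulatory subunit NEMO, was at 52.5 ± 4.597 and 45.9 ± 3.15 CPM (0.19, edgeR adjusted p = 0.580). Both overlapped between groups, with 3 responders above every non-responder.

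Of 20 genes of the apoptosis machinery, 14 had a higher and 6 a lower mean in responders. The edgeR adjusted p was under 0.05 for 0 of them, 2 were higher at an unadjusted p under 0.05 and 0 lower, and the median log2 fold change was 0.05. With the leukocyte markers as a covariate it was 0.01, and without non-responder 7 it was 0.03. Bcl2a1b, an antiapoptotic member of the Bcl2 family, was at 17.5 ± 3.18 and 12.6 ± 2.10 CPM (0.47, edgeR adjusted p = 0.580), and its near-identical copy Bcl2a1d at 12.1 ± 2.08 and 10.2 ± 1.41 CPM (0.25, edgeR adjusted p = 0.628). Reads may be split between these copies, which makes both values uncertain. Casp6, an executioner caspase, was at 20.2 ± 1.70 and 18.0 ± 0.956 CPM (0.17, edgeR adjusted p = 0.591).

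As a reference, 16 interferon-induced genes were counted in the same way. Of these, 13 had a higher and 3 a lower mean in responders, 0 had an adjusted p under 0.05 by edgeR, 6 were higher at an unadjusted p under 0.05 and 0 lower, and the median log2 fold change was 0.13. Without non-responder 2 that median was 0.08, and without responder 5 the 13 genes became 9. With the leukocyte markers as a covariate the median was 0.12 and 16 genes were higher. With the macrophage markers it was 0.11 and 12 genes were higher. Cxcl10, a chemokine for T and NK cells, was at 219 ± 26.1 and 155 ± 37.2 CPM, with 4 non-responders below every responder (0.50, edgeR adjusted p = 0.580). The transcription factor Irf1 was at 373 ± 41.6 and 280 ± 72.3 CPM, also with 4 non-responders below every responder (0.41, edgeR adjusted p = 0.580). Other genes of the list were near level or lower, among them, chosen after their values were seen, Isg15 with a log2 fold change of 0.06, Mx1 with 0.01 and Ifit1 with -0.09. In Cxcl10 and Irf1 non-responder 3 was the highest of its group and non-responder 2 or 7 the lowest, the order that Zbp1, Casp4 and Mlkl showed.

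Bulk RNA cannot tell more cells of a type from more RNA per cell, and the markers of several cell types also had other means in responders than in non-responders. The 5 leukocyte markers summed to 484 ± 62.7 CPM in responders and 427 ± 56.6 in non-responders (exact permutation p = 0.167), with Laptm5 the most abundant. The 10 macrophage markers summed to 2643 ± 295 and 2412 ± 284 CPM (exact permutation p = 0.238), led by Lyz2, and 9 of them had a higher fitted mean in responders. Of 8 NK cell markers, 7 passed the filter and all 7 were higher in responders, 6 at an unadjusted p under 0.05. Their sum was 34.3, 114, 129, 212 and 123 CPM in responder tumors 5, 9, 10, 11 and 12 and 71.3, 28.7, 42.0, 69.6 and 35.1 CPM in non-responder tumors 1, 2, 3, 6 and 7, with Gzma the most abundant and Klra8 at 0 (exact permutation p = 0.0397). Responder 11, highest for the death genes, was also highest here, but responder 5 and non-responder 3, both with 8 of 10 death genes above the mean, were low in NK cell markers. T cell markers (9 of 10 found, led by Lck) summed to 46.6 ± 15.6 and 34.0 ± 10.7 CPM, and neutrophil markers, of which 5 of 10 passed the filter, to 33.8 ± 12.3 and 22.4 ± 6.43 CPM, with Csf3r leading and Elane at 0. Dendritic cell markers, led by Ccr7, summed to 21.4 ± 3.47 and 20.2 ± 4.61 CPM and B cell markers, led by Ighm, to 5.84 ± 1.05 and 5.84 ± 0.818 CPM.

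Markers of fibrosarcoma and other mesenchymal cells were the most abundant of the marker lists, with Vim at a mean of 4764 CPM. The 9 mesenchymal markers summed to 11764 ± 450 CPM in responders and 12413 ± 808 in non-responders (exact permutation p = 0.151), 7 of them with a lower fitted mean in responders. Endothelial markers, led by Pecam1, summed to 149 ± 7.42 and 162 ± 12.8 CPM (exact permutation p = 0.103). Skeletal muscle markers, led by Acta1, summed to 122 ± 52.4 and 160 ± 45.2 CPM, adipocyte markers, led by Fabp4, to 23.9 ± 6.42 and 26.3 ± 9.10 CPM, and keratinocyte markers, led by Dsp with Krt1 at 0, to 17.1 ± 1.56 and 17.4 ± 1.10 CPM. At an unadjusted p under 0.05 by edgeR, 2 mesenchymal, 2 endothelial, 2 skeletal muscle and 1 adipocyte marker were lower in responders. None of these lists had a marker higher at that level. The leukocyte list had 2 higher at that level, and the T cell and neutrophil lists 1 each.

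With the mean log2 level of the leukocyte markers as a covariate in edgeR, 0 of the 10 genes had an unadjusted p under 0.05, and the features at that level over the whole table fell from 1294 to 458. The log2 fold change of Zbp1 was then 0.21 (unadjusted p = 0.0816), that of Casp4 0.19 (0.0906), that of Gsdmd 0.12 (0.162), that of Mlkl 0.09 (0.169) and that of Ripk3 0.07 (0.314). With the macrophage markers instead, Zbp1 alone was under 0.05, with a log2 fold change of 0.27 (unadjusted p = 0.0421), Casp4 was at 0.20 (unadjusted p = 0.0592), Ripk3 at 0.09 (unadjusted p = 0.185), and 639 features of the whole table were under 0.05. The median log2 fold change of the 10 genes was 0.08 with the leukocyte and 0.11 with the macrophage markers. For Zbp1, Casp4, Gsdmd, Mlkl and Ripk3 the fold changes were thus smaller with either marker score and stayed positive, while that of Aim2 turned negative (-0.09 and -0.05) and that of Casp8 changed sign. Which cells carried the transcripts was not tested.

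**Figure D5:**
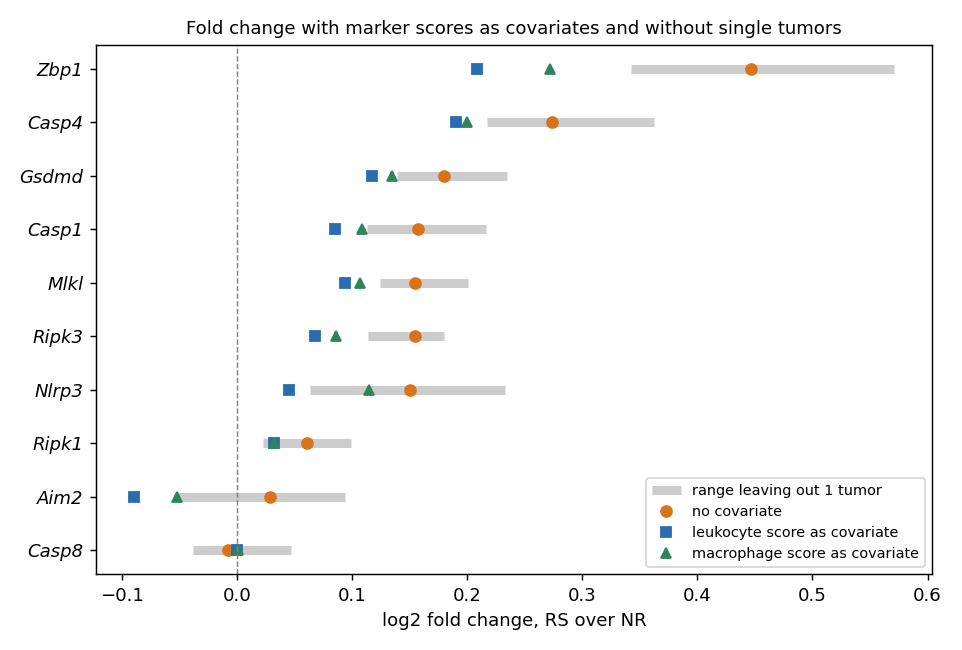
Log2 fold change, responders over non-responders, of each gene with no covariate, with the leukocyte or the macrophage marker score as a covariate, and as the range over fits that leave out 1 tumor. Zbp1, Casp4, Gsdmd, Casp1, Mlkl, Ripk3, Nlrp3 and Ripk1 stay above 0 in all of these, and Aim2 and Casp8 cross 0.

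The promoters were searched for 2 motifs of interferon-activated factors, since several of these genes are known as interferon-inducible. RefSeq windows (GRCm38.p6, 250 bases before to 50 after each start) matched 8 of the 10 genes, all but Gsdmd and Zbp1, with 11 windows in all. The upstream 120 bases are shown for the neighbouring caspase genes and Mlkl, which were among the most strongly correlated members, and for the later start of Ripk1, the only member with a match to the GAS motif. Capitals mark the matches to that motif, TTCNNNGAA.
Casp1, chr9:5298397-5298516, plus strand: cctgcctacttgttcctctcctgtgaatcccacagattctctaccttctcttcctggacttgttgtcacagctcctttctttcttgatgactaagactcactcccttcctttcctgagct
Casp4, chr9:5308729-5308848, plus strand: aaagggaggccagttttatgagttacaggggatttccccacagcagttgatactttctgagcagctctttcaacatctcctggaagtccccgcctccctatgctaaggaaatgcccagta
Mlkl, chr8:111338206-111338325, minus strand: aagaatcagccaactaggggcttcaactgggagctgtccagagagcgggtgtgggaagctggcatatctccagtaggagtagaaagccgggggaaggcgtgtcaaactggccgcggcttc
Ripk1, chr13:34002754-34002873, plus strand: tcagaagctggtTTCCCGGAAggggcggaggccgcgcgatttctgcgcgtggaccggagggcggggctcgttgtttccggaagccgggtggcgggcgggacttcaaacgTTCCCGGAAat

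GAS (TTCNNNGAA, read on both strands) was found in 8.3% of all 32851 RefSeq promoter windows and an ISRE-type core (GAAANNGAA, both strands) in 8.56%. Of the members' genes, 1 of 8 had the GAS letters, against 9.55% of 27025 genes, and 2 of 8 the ISRE-type letters, against 9.76%. Ripk1 had GAS matches at -108 to -100 and at -11 to -3 from the later start, and an ISRE-type match from -5 to 4 that overlaps the second of them. Ripk3 had an ISRE-type match from 15 to 23 after its start. The windows of Casp1, Casp4, Casp8, Mlkl, Nlrp3 and Aim2 held neither string, which says only that these letters are not in these windows.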

How the data were processed

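Per the submitters' processing notes and the study's methods, the authors quantified transcripts with Kallisto on GRCm38 and summed them to genes with tximport, and deposited estimated counts per gene without normalization (annotation release not given in the sources used here). Rows without a gene name (9580, holding 1.31% of counts) were kept as features, rows of 1 name were summed and values were rounded. Features above 0.366 CPM in at least 3 tumors (15767) were fitted in edgeR 4.0.16 (R 4.3.3) with TMM, the quasi-likelihood test and Benjamini-Hochberg adjustment, with no covariate. The spread between tumors corresponded to a biological coefficient of variation of 10.4%. DESeq2 1.42.0, limma 3.58.1, other scalings, filters, marker covariates and leaving out each tumor were alternatives. Correlations and the permutation tests of the members used log2(CPM + 1), and the permutation tests of the marker lists used summed CPM without logarithm. These were run with numpy 2.4.6 and scipy 1.17.1. Groups came from the labels, which give no batch. No 2 tumors agreed within sampling noise. The pipeline was tested on simulated data.

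All members are named, as are the 3 genes with the smallest unadjusted p of each pathway list, the 3 features most correlated with each member, and the most abundant gene of each marker list with its markers at 0. A gene that this rule names is not reported here. Members and lists were chosen with earlier results of these data known. Gene positions and lengths came from GENCODE vM21 on GRCm38, promoters from RefSeq.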

Additional observations from a re-analysis of the deposited data

Results flagged for a closer look

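Casp8 in non-responder tumor 6 stood apart from its group, at 6.19 on the log2(CPM + 1) scale against 5.94 to 5.97 in the other 4 non-responders. The gap to the nearest tumor was 0.89 of the group's whole range, past the limit of 0.71 for 5 samples. It was the only such value among 44 groups of 22 measures, of which chance alone gives 2.2.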

How the results depend on the processing

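The count of members with an adjusted p under 0.05 was 0 under all 18 alternatives that gave one, and 8 of the 10 genes kept a positive log2 fold change throughout; the adjusted p of Zbp1 ran from 0.203 to 0.999. The 5 genes with an unadjusted p under 0.05 became 0 with the leukocyte markers as a covariate, 1 with the macrophage markers, 3 with the skeletal muscle markers (chosen after seeing the data), 2 by the exact permutation test, 6 without a filter and 2 to 6 without 1 tumor. Over the whole table the features at that level went from 1294 of 15767 to 458, 639, 1361 and, without a filter, 1686 of 24858, and ran from 839 to 2139 without 1 tumor.

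The log2 fold change of Casp8 turned positive with the leukocyte (0.000256), macrophage (0.00108) and skeletal muscle (0.0345) markers and ran from -0.0381 to 0.0471 without 1 tumor. That of Aim2 turned negative with the leukocyte (-0.0892) and macrophage (-0.0517) markers and ran from -0.051 to 0.0943. The median of the necroptosis list was 0.0338 with the leukocyte and 0.0414 with the macrophage markers, and 0.0426 to 0.0843 without 1 tumor. The median of the apoptosis list was 0.0102 with the leukocyte and 0.0268 with the skeletal muscle markers, and 0.0267 to 0.0662 without 1 tumor. The median of the 10 genes was 0.0765 with the leukocyte markers. The median of the inflammasome list was 0.0688 and 0.0808 with the leukocyte and macrophage markers. That of the interferon list was 0.124 and 0.106 with these markers, and 0.0801 to 0.18 without 1 tumor. Nlrp3 ran from 0.0634 to 0.233 and Ripk1 from 0.0228 to 0.099 without 1 tumor, and Nlrp3 was at 0.0452 with the leukocyte markers. The cause was not tested. With the longest transcript as length Casp8 stood at 24.4 CPM per kilobase. No paired analysis was possible because the groups share no tumor number. Aim2 rested on 89 counts in its lowest tumor, which limits its precision.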
